A study of Ovis aries with 30 samples.

Results

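Interferon-stimulated genes are the genes that cells switch on when they sense interferon, and 39 of them were listed by symbol for description across lamb livers. Of these, 35 had a row under that symbol among the 31304 gene rows of the table, and all 35 passed the low-count filter. OAS2, BST2, SAMD9 and GBP4 had no row by that symbol and were not analysed here. The list was set by gene name, and it was chosen with earlier results of these data known. The livers of 30 lambs were sequenced in a sheep study that asked how maternal exposure to biosolids, processed sewage sludge that carries a mixture of environmental chemicals, before conception and through gestation affects the liver transcriptome. The 4 groups were 8 control females, 8 biosolids females, 7 control males and 7 biosolids males, each lamb named by its tag number. Breed, age at sampling, litter, flock, day of processing and infection status are not given in the labels used here. Controls carry lower tag numbers than all exposed lambs, and what the order of tags stands for is not stated. Anything that follows tag order cannot be told apart from exposure.

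Interferons are secreted proteins that bind receptors on neighbouring cells. Type I and type III interferons act through the kinases JAK1 and TYK2 and a transcription factor complex that includes STAT2 and IRF9, whereas interferon gamma, made mainly by T and NK cells, has its own receptor and induces IRF1. The genes they induce include sensors of viral nucleic acid, the ubiquitin-like modifier ISG15 with its conjugating enzymes, and effectors that block viral entry, translation or replication. In liver, hepatocytes and Kupffer cells both respond to interferon.

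Total counts per lamb ran from 18.7 M to 51.9 M. One biosolids male, 8778, had 87.5% of its counts in ribosomal RNA rows against 0.299% to 7.69% in the other 29 lambs, and it had the fewest counts of the 30 lambs for 32 of the 35 members. One control female, 8263, stood apart in the genes described here, so the comparisons of groups that include it are given with and without it. Levels are in CPM, the library-scaled count. In whole tissue, fewer cells of a type and less RNA per cell cannot be told apart. Hepatocyte genes were abundant in every lamb, with ALB, the gene for albumin, at 30009 CPM in lamb 8263 and at 33412 to 72827 CPM in the other 29.

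The overall level of the 35 genes, taken as their mean log2 CPM in a lamb, differed more between lambs of 1 group than between the medians of the groups. Control female 8263 had a level of 8.07, control female 8378 of 6.34 and control male 8428 of 5.98. The next lambs were biosolids female 8775 at 5.48, control male 8408 at 5.35, control female 8245 at 5.23 and biosolids male 8778 at 5.11. The lowest were control females 8353 and 8269, at 3.63 and 3.70. Control females thus held both the 2 highest and the 2 lowest lambs of the study.

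Group medians of this level lay close together: 4.50 in control females, 4.57 in biosolids females, 4.45 in control males and 4.25 in biosolids males. The spread did not: the SD was 1.53 in control females (n = 8), 0.58 in biosolids females (n = 8), 0.74 in control males (n = 7) and 0.46 in biosolids males (n = 7). Without lamb 8263 the SD of the control females was 0.97 and their median 4.15. The 4 groups overlapped, and the difference between their medians was smaller than any of the SDs.

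**Figure D1:**
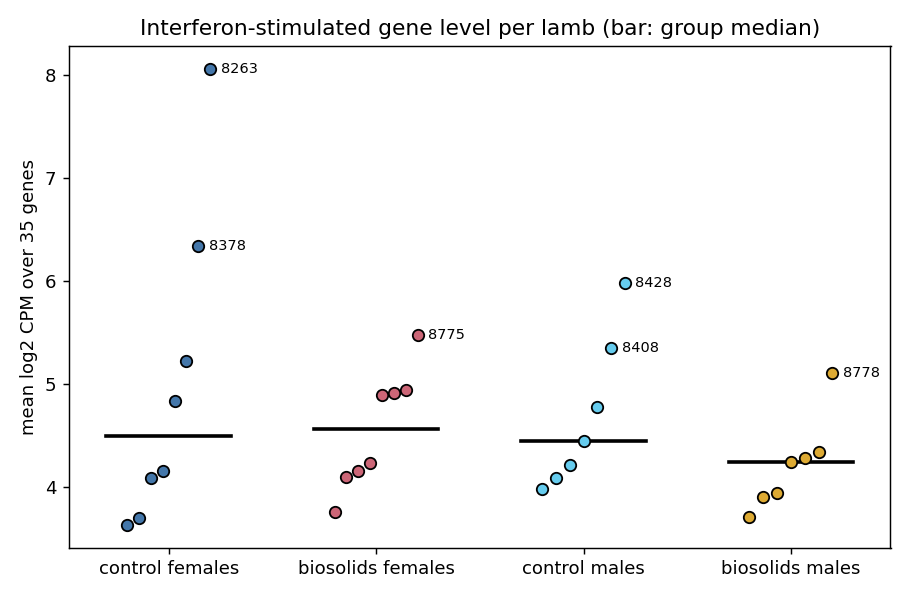
Mean log2 CPM of the 35 interferon-stimulated genes in each lamb (vertical axis) by group (horizontal axis), with 1 point per lamb and a bar at the group median. Control female 8263 at 8.07 stands above all others, followed by 8378 at 6.34 and control male 8428 at 5.98, and the 4 medians lie between 4.25 and 4.57.

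Lamb 8263 was the highest of the 30 lambs for 34 of the 35 genes, against 11.5% of all 17840 genes tested. It lay over 8-fold above the median lamb for 22 of the 35, against 0.723% of all genes. Control female 8378 was the next highest for 26 of the 35 and among the top 3 for 31. Control male 8428 was the next highest for 6 and among the top 3 for 25. The exception to the pattern was TRIM25, a ubiquitin ligase, which was highest in control male 8428.

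**Figure D2:**
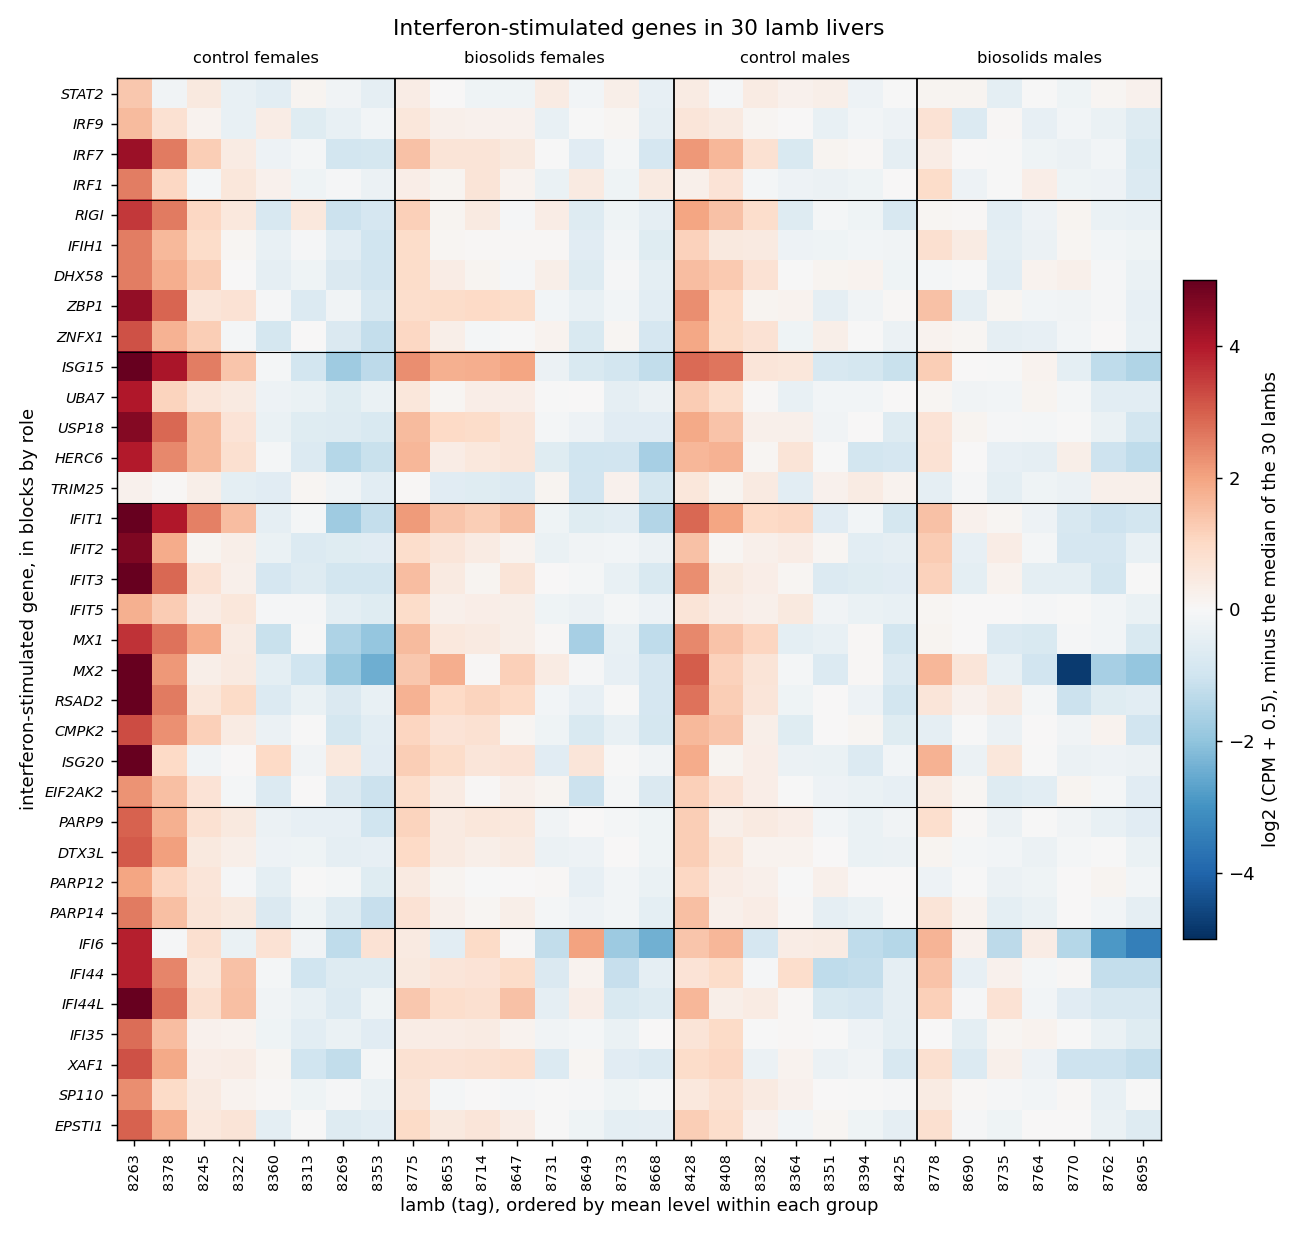
Log2 (CPM + 0.5) of each gene (rows, in blocks by role) in each lamb (columns, by group and ordered by mean level), relative to the median of the 30 lambs, with colours capped at 5 log2 units either way. The column of control female 8263 is red in nearly every row, 8378 and control male 8428 follow, STAT2 and TRIM25 vary little, and MX2 is blue in biosolids male 8770.

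The 4 regulators differed in how far lamb 8263 lay above the median of the other 29 lambs. The fold was 20.2 for IRF7, 5.91 for IRF1, 3.97 for IRF9 and 2.58 for STAT2. IRF7, the transcription factor that amplifies type I interferon production, ranged from 5.97 through a median of 13.2 to 232 CPM in control females and from 6.19 through 14.1 to 32.5 CPM in biosolids females. In males it ranged from 6.69 through 12.8 to 53.2 CPM in controls and from 6.70 through 10.6 to 14.9 CPM in exposed lambs. The groups overlapped, and the top values came from lambs 8263 (232 CPM), 8378 (72.9 CPM) and 8428 (53.2 CPM). IRF1, a factor induced by interferon gamma in particular, stood at 234 CPM in lamb 8263 and at 24.7 to 82.8 CPM in the other 29, with a median of 39.6 CPM. STAT2, which carries the type I signal to the nucleus, was 161 CPM in lamb 8263 against 43.5 to 88.3 CPM elsewhere, and lamb 8378 at 55.8 CPM sat below the median of 62.5 CPM. IRF9, the DNA-binding subunit of the same complex, had the lowest level of the 35 genes per length, with a median of 0.473 CPM per kb of exon. It reached 4.34 CPM in lamb 8263, on 176 counts. STAT2 overlaps the rows of APOF, LOC114114296 and IL23A, IRF9 overlaps RNF31 and IRF1 overlaps RAD50, and reads of the 2 strands may not have been told apart, since no strand setting is given for the counting.

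Lamb 8263 was the highest for all 5 nucleic acid sensors, with 8378 next for 4 of them and control male 8428 next for ZNFX1. RIGI and IFIH1 detect viral double-stranded RNA in the cytosol, DHX58 tunes their signal, ZBP1 senses left-handed nucleic acid, and ZNFX1 is a helicase at the mitochondrial surface that binds viral RNA. RIGI (chromosome 2, 101615990 to 101663371) was 203 CPM in lamb 8263, 106 CPM in 8378 and 69.0 CPM in 8428, against a median of 16.3 CPM over the 29 lambs other than 8263. Its range was 7.93 to 203 CPM with a median of 24.5 CPM in control females, 10.7 to 39.3 CPM with a median of 17.5 CPM in biosolids females, 9.63 to 69.0 CPM with a median of 16.1 CPM in control males, and 11.6 to 18.7 CPM with a median of 14.4 CPM in biosolids males. Biosolids males were the narrowest of the 4 groups and lay inside the range of every other one.

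ZBP1 (chromosome 13, 58227724 to 58238169) was 133 CPM in lamb 8263, 46.5 CPM in 8378 and 30.7 CPM in 8428, and no other lamb exceeded biosolids male 8778 at 16.7 CPM. Its group medians were 7.29 CPM in control females, 8.24 CPM in biosolids females, 6.44 CPM in control males and 5.28 CPM in biosolids males. DHX58 showed a smaller contrast, at 154 CPM in lamb 8263 and 91.7 CPM in 8378 against a median of 25.4 CPM. IFIH1 and ZNFX1 were 6.17-fold and 9.19-fold above the median of the other 29 lambs in lamb 8263.

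ISG15, a small ubiquitin-like protein that is attached to other proteins, is encoded at chromosome 12, 50782014 to 50783069. It reached 697 CPM in lamb 8263, 216 CPM in 8378 and 91.2 CPM in 8428. Its values in control females ran from 3.19 through a median of 22.2 to 697 CPM, and in biosolids females from 4.97 through 26.7 to 62.3 CPM. In males they ran from 5.36 through 18.3 to 91.2 CPM in controls and from 3.95 through 11.9 to 29.5 CPM in exposed lambs. Exposed females thus had the higher median and the lower maximum, and the groups overlapped in both sexes. ISG15 followed the other members most closely of all 35, with a Spearman rho of 0.97 against the mean of the other 34 over 30 lambs.

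The enzymes that attach and remove ISG15 did not keep 1 ratio to it. UBA7, the activating enzyme, was 173 CPM in lamb 8263 but 23.2 CPM in 8378 and 25.8 CPM in 8428, against a median of 10.3 CPM. USP18, the protease that removes ISG15 and damps receptor signalling, was 496, 150 and 76.1 CPM in the same 3 lambs against a median of 20.1 CPM. HERC6, a ligase of the HERC family, was 243, 81.9 and 48.8 CPM against 14.8 CPM. TRIM25, which ubiquitinates RIG-I, varied little: 305 CPM in lamb 8263, 271 CPM in 8378 and 396 CPM in 8428, with 134 CPM in biosolids female 8649 as the lowest value. Its within-group SD on the log2 scale was 0.38, the smallest of the 35 genes, and its rho against the other members was 0.08.

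The 4 IFIT genes, whose proteins bind foreign RNA ends, lie side by side on chromosome 22, in the order IFIT2 (10850972 to 10858816), IFIT3 (10865593 to 10875872), IFIT1 (10892356 to 10902480) and IFIT5 (10907768 to 10917695). They differed widely in lamb 8263 all the same. IFIT3 was 545 CPM there, 80.2-fold above the median of 6.80 CPM in the other 29 lambs. IFIT1 was 1168 CPM against 32.4 CPM and IFIT2 295 CPM against 10.4 CPM, 36.0-fold and 28.3-fold. IFIT5 was 220 CPM against 63.4 CPM, only 3.46-fold. In lamb 8378 the order was different, with IFIT1 17.8-fold, IFIT3 8.11-fold, IFIT2 4.09-fold and IFIT5 2.50-fold above the median of the 28 lambs other than 8263 and 8378.

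IFIT3 ran from 3.42 through a median of 6.32 to 545 CPM in control females and from 3.88 through 7.36 to 21.0 CPM in biosolids females. It ran from 4.08 through 7.46 to 36.6 CPM in control males and from 3.38 through 4.80 to 16.0 CPM in biosolids males. Only lambs 8263 (545 CPM), 8378 (53.9 CPM) and 8428 (36.6 CPM) exceeded 21.0 CPM. Without those 3 lambs, control females reached 11.8 CPM and control males 9.80 CPM, below the highest exposed lambs of each sex, and the groups overlapped. In males that highest exposed lamb was 8778, on 45 counts in the library rich in ribosomal RNA. The next exposed male was 8735 at 7.80 CPM, below the top control male.

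RSAD2, or viperin, and CMPK2, its neighbour on chromosome 3 (RSAD2 at 16737777 to 16756304, CMPK2 at 16708305 to 16725642), act in the same nucleotide chemistry: CMPK2 makes CTP, which viperin turns into a chain terminator. RSAD2 was 587 CPM in lamb 8263 against 2.71 to 43.5 CPM in the other 29, a 95.3-fold excess over their median of 6.16 CPM. CMPK2 was 893 CPM against 47.5 to 454 CPM, a 9.76-fold excess over a median of 91.5 CPM. The row LOC132659559, on the other strand of RSAD2, was also high in lamb 8263, at 47.8 CPM against 1.05 to 4.54 CPM.

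ISG20, an exonuclease that degrades viral RNA, gave the largest contrast of the 35 (chromosome 18, 18994285 to 19011251). Lamb 8263 had 111 CPM on 4501 counts, 287-fold above the median of 0.386 CPM in the other 29 lambs. The other 29 held 2 to 135 counts each, from 0.0564 CPM in control male 8394 to 2.72 CPM in control male 8428, and lamb 8378 was at 1.26 CPM. Group medians were 0.597 CPM in control females, 0.867 CPM in biosolids females, 0.322 CPM in control males and 0.250 CPM in biosolids males. Without lamb 8263 the order of the groups rests on at most 135 counts per lamb, and the groups overlapped.

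MX1 and MX2, dynamin-like GTPases that trap viral nucleocapsids, are neighbours on chromosome 1 (MX2 at 262303074 to 262335698, MX1 at 262343364 to 262378059). MX1 was 1076 CPM in lamb 8263, 566 CPM in 8378, 464 CPM in 8428 and 22.1 CPM in control female 8353, the lowest. Its group medians were 99.8 CPM in control females, 96.9 CPM in biosolids females, 89.0 CPM in control males and 78.6 CPM in biosolids males. EIF2AK2, the kinase PKR that stops translation on double-stranded RNA, was 422 CPM in lamb 8263 against a median of 87.2 CPM and shares its locus with GPATCH11 on the other strand.

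MX2 was 646 CPM in lamb 8263, 60.9 CPM in 8378 and 112 CPM in 8428. In biosolids male 8770 it had 0 counts, in a library with 43.3 M total counts. The next lowest lamb, control female 8353, had 80 counts, or 2.07 CPM. With 3 counts as the limit that a count of 0 allows, 8770 had at most 0.0689 CPM of assigned reads, at least 30.1-fold lower than any other lamb and at least 121-fold lower than the median of 8.34 CPM in the other biosolids males. MX1 in the same lamb was 84.0 CPM, close to the median of 86.3 CPM over the 30 lambs, and its mean level over the 35 genes, 3.95, ranked 25 of 30. Among all 17840 genes and 30 lambs, only 3 gene and lamb pairs had 0 counts in 1 lamb and at least 50 in every other lamb: MX2 in 8770, AMY2B in control male 8382 and NUMBL in biosolids male 8778. The limit covers counting error only, since reads carry no molecular identifiers. A count of 0 says that no read was assigned to this row, and whether MX2 reads of this lamb were lost in mapping or assignment was not tested, so it is no measure of expression on its own.

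**Figure D3:**
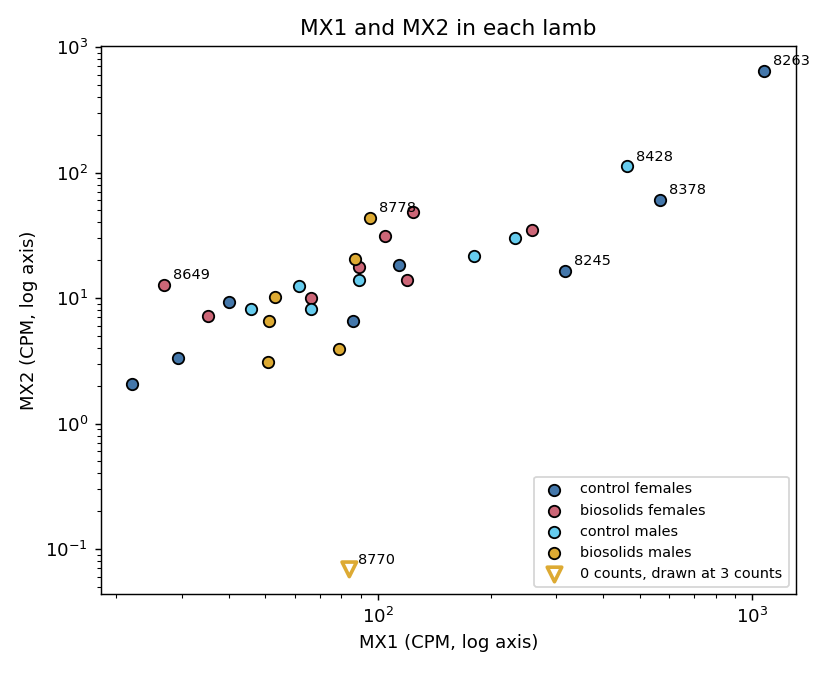
MX2 against MX1 in each lamb, both in CPM on log axes, with 1 point per lamb coloured by group and the lamb with 0 MX2 counts drawn as a triangle at its limit of 3 counts. MX2 rises with MX1 up to control female 8263 at 646 and 1076 CPM, whereas biosolids male 8770 has an ordinary MX1 of 84.0 CPM and 0 MX2 counts.

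MX2 per 100 CPM of MX1 also varied between lambs that both had counts. It was 60.1 in lamb 8263, 47.8 in biosolids female 8649 and 45.9 in biosolids male 8778. It was 10.8 in lamb 8378, 5.2 in control female 8245 and 5.0 in biosolids male 8762. The ratio of the 2 genes was thus not fixed among lambs with high MX1.

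PARP9 and DTX3L, an ADP-ribosyltransferase and the ubiquitin ligase it binds, lie next to each other on chromosome 1 (187792273 to 187822258 and 187822343 to 187831573), with PARP14 close by (187849133 to 187897520). The 3 genes were 8.16-fold, 8.62-fold and 6.24-fold above the median of the other 29 in lamb 8263, and 3.65-fold, 4.38-fold and 2.95-fold above the median of 28 in lamb 8378. DTX3L was 206 CPM in lamb 8263, 102 CPM in 8378 and 57.6 CPM in 8428 against a median of 23.9 CPM. PARP12, a transferase encoded on chromosome 4, was 114, 60.1 and 59.3 CPM in the same lambs against 28.4 CPM. The fold of these 4 genes in lamb 8263 covered a narrower range than that of the effectors.

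IFI6, a small membrane protein that limits flavivirus replication and cell death, was by far the most abundant of the 35 per length, at a median of 431 CPM per kb of exon. MX1, CMPK2, IFIT5 and ISG15 followed at 35.4, 27.9, 20.4 and 20.0 CPM per kb. IFI6 was 4675 CPM in lamb 8263, 301 CPM in 8378 and 818 CPM in 8428. Its other high values were 1263 CPM in biosolids female 8649, 1025 CPM in biosolids male 8778 and 975 CPM in control male 8408. Its lowest was 28.8 CPM in biosolids male 8695. Lamb 8378, the next highest lamb for 26 other members, stood at the median of 301 CPM for IFI6, and the rho of IFI6 against the other members was 0.58.

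IFI44 and IFI44L, adjacent genes on chromosome 1 (55103734 to 55169614 and 55069404 to 55088981) whose proteins feed back on the interferon response, were 435 and 286 CPM in lamb 8263, 161 and 53.2 CPM in 8378, and 47.3 and 24.6 CPM in 8428. The medians of the other 29 lambs were 27.6 and 7.25 CPM. XAF1, a promoter of cell death, was 155 CPM in lamb 8263 against a median of 15.8 CPM. IFI35, SP110 and EPSTI1 were 6.97-fold, 5.05-fold and 7.94-fold above the median there. IFI35 overlaps the row of RPL27 and SP110 that of LOC101120225.

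Lambs 8263 and 8378 were compared gene by gene, each against the median of the 28 others. Lamb 8263 exceeded 8378 for all 35 genes, but the ratio between them ran from 1.13 for TRIM25 to 87.7 for ISG20. IFI6 at 15.6, RSAD2 at 14.6, MX2 at 10.6, IFIT3 at 10.1, UBA7 at 7.46 and IFIT2 at 7.04 were the most unequal after ISG20. IFIT5 at 1.40, EIF2AK2 at 1.64, DHX58 at 1.68 and MX1 at 1.90 were among the most even. The profile of lamb 8263 was therefore not a fixed multiple of the profile of lamb 8378. With 1 library each, these ratios compare 2 lambs and have no replicate check.

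**Figure D4:**
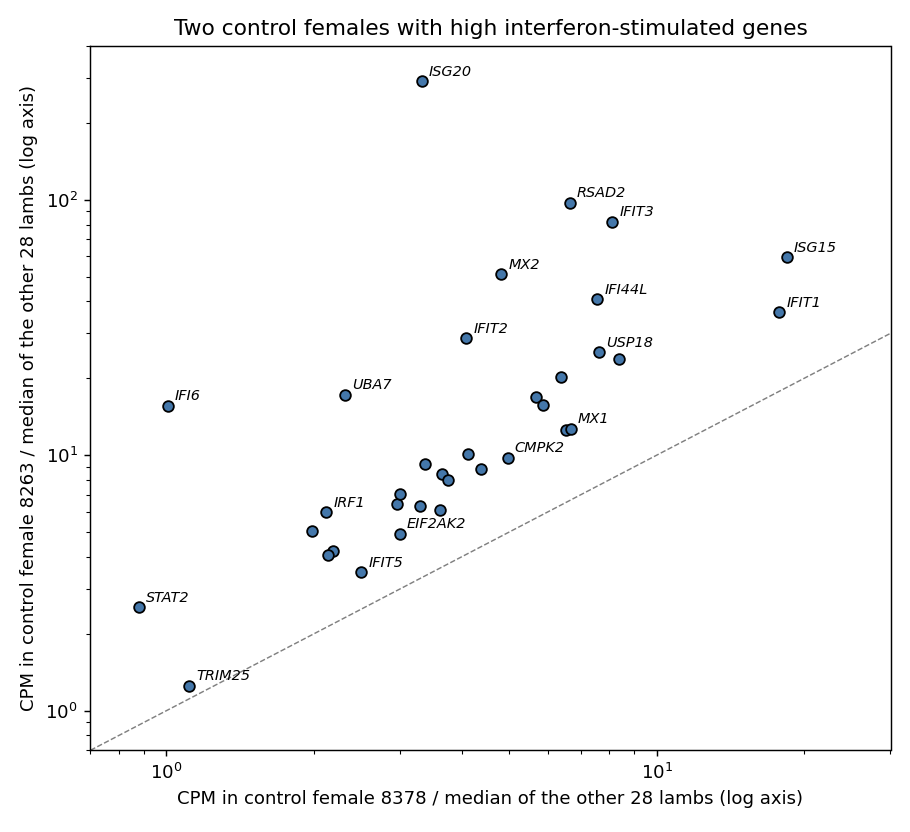
CPM of each of the 35 genes in control female 8263 (vertical axis) against control female 8378 (horizontal axis), both divided by the median of the other 28 lambs on log axes, with the dashed line at equality. All points lie above the line, ISG20 farthest from it, IFI6 and UBA7 are far higher in 8263 than in 8378, and TRIM25 and STAT2 lie near 1 on the horizontal axis.

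Across the 30 lambs the members varied together, as a description over lambs that share the pattern of 8263 and 8378. For 22 of the 35 genes, Spearman's rho between the gene and the mean of the other members was above 0.8, and for 20 this held over the 28 lambs without those 2. The median rho was 0.85 over 30 lambs and 0.82 over 28. ISG15 (0.97), IFIT1 (0.96) and USP18 (0.94) followed the rest most closely. TRIM25 (0.08), STAT2 (0.35), IFI6 (0.58), IRF1 (0.59) and ISG20 (0.59) followed it least.

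The members varied more within groups than most genes. Their within-group SD on the log2 scale had a median of 0.97, against 0.42 over all 17840 genes tested, and of 0.75 against 0.41 without lamb 8263. MX2 at 2.18, ISG15 at 1.91 and ISG20 at 1.86 had the largest SDs, and TRIM25 at 0.38 and STAT2 at 0.40 the smallest.

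The non-member genes whose pattern was most like the members, by rho against their mean level over 30 lambs, were led by 3 with a rho of 0.94: LOC101112122, LOC101112936 and RTP3. Next came LOC105602911, LOC106991529, LOC101121244, RTP4, CMTR2, TRIM34 and SHISA5, with rho from 0.93 to 0.85. RTP3, a receptor-transporting protein gene at chromosome 19, 52920893 to 52932173, was 128 CPM in lamb 8263, 59.9 CPM in 8378 and 4.58 to 59.9 CPM across the 29 other lambs. CMTR2, which methylates the mRNA cap, was 107 CPM in lamb 8263 and 38.0 CPM in 8378 against a median of 8.53 CPM. Without lambs 8263 and 8378 the rho of these 10 genes lay between 0.93 and 0.81.

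Exposure in females was first compared on all 16 lambs. With p-values from the quasi-likelihood test of edgeR and Benjamini-Hochberg adjustment over all genes, none of the 35 passed, and the smallest adjusted p among them was 0.95. No gene of the 17840 passed in this comparison (0%). All 35 had a lower fitted mean in exposed females, against 54.1% of all genes, and their median log2 fold change was -1.21, against -0.02 over all genes. At an unadjusted p under 0.05, 24 of the 35 were lower and 0 higher, where 2.15% of all genes were lower and 1.50% higher. DESeq2 gave 19 at that level and limma voom with sample weights 0.

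ISG20 had the largest fold change in females, -4.19 (SE 1.17) on the log2 scale with an unadjusted p of 0.00128 in the edgeR fit. IFIT3 followed at -3.13 (SE 0.91), RSAD2 at -3.02 (SE 0.92), ISG15 at -2.20 (SE 0.93), MX2 at -2.11 (SE 1.01) and IFI44L at -2.10 (SE 0.71). USP18 was at -1.76 (SE 0.64), ZBP1 at -1.73 (SE 0.65), IRF7 at -1.64 (SE 0.62), IFI44 at -1.56 (SE 0.59), UBA7 at -1.52 (SE 0.51) and RIGI at -1.42 (SE 0.55). By role, 8 of 10 antiviral effectors, 4 of 5 sensors, 4 of 5 genes of the ISG15 system, 2 of 4 genes of the PARP and DTX3L group, 1 of 4 regulators and 5 of the 7 remaining members had an unadjusted p under 0.05. The 3 genes with the largest fold changes, ISG20, IFIT3 and RSAD2, were also the 3 in which lamb 8263 stood highest above the median of the other lambs.

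Without lamb 8263, 0 of the 35 genes had an unadjusted p under 0.05 in either direction, where 1.46% of all genes were lower and 1.92% higher. Of the 35, 29 were lower and 6 higher, where 51.8% of all genes were lower, and the median log2 fold change was -0.19. ISG20 was then at 0.33 (SE 0.63), IFIT3 at -0.48 (SE 0.57), RSAD2 at -0.14 (SE 0.56) and UBA7 at -0.11 (SE 0.25). Without both 8263 and 8378, 31 of the 35 were higher in exposed females, against 47.9% of all genes, 4 were lower and 0 had an unadjusted p under 0.05, where 1.54% of all genes were lower and 1.47% higher, with a median of 0.21. All 10 effectors, all 5 sensors and all 4 regulators were on the higher side in that fit. The median difference in females was thus negative without lamb 8263 and positive without both lambs. Both are control females and rank 1 and 2 for the level of these same genes. Leaving them out raises the difference by construction, so its sign in that fit shows no direction of exposure.

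Measures that 1 lamb moves less gave smaller differences in females. By group medians, 23 of the 35 genes were higher in exposed females and 12 lower, with a median log2 ratio of 0.09. Over all genes 50.4% were lower by this measure, with a median log2 ratio of -0.0015. An exact two-sided permutation test of log2 CPM over the 12870 splits of the 16 females gave p from 0.197 for TRIM25 to 0.943 for STAT2, and 0 of the 35 had p under 0.05. In the same test 34 of the 35 differences were negative, with a median of -0.43, and no share over all genes is given for it. DESeq2 in its default form had replaced the counts of 7 members in lamb 8263 as outliers (ZBP1, UBA7, IFIT2, IFIT3, MX2, RSAD2 and ISG20). It then put ISG20 at 0.35 (SE 0.52). limma voom gave lamb 8263 the lowest sample weight of the 30, 0.367, and a median log2 fold change of -0.12.

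**Figure D5:**
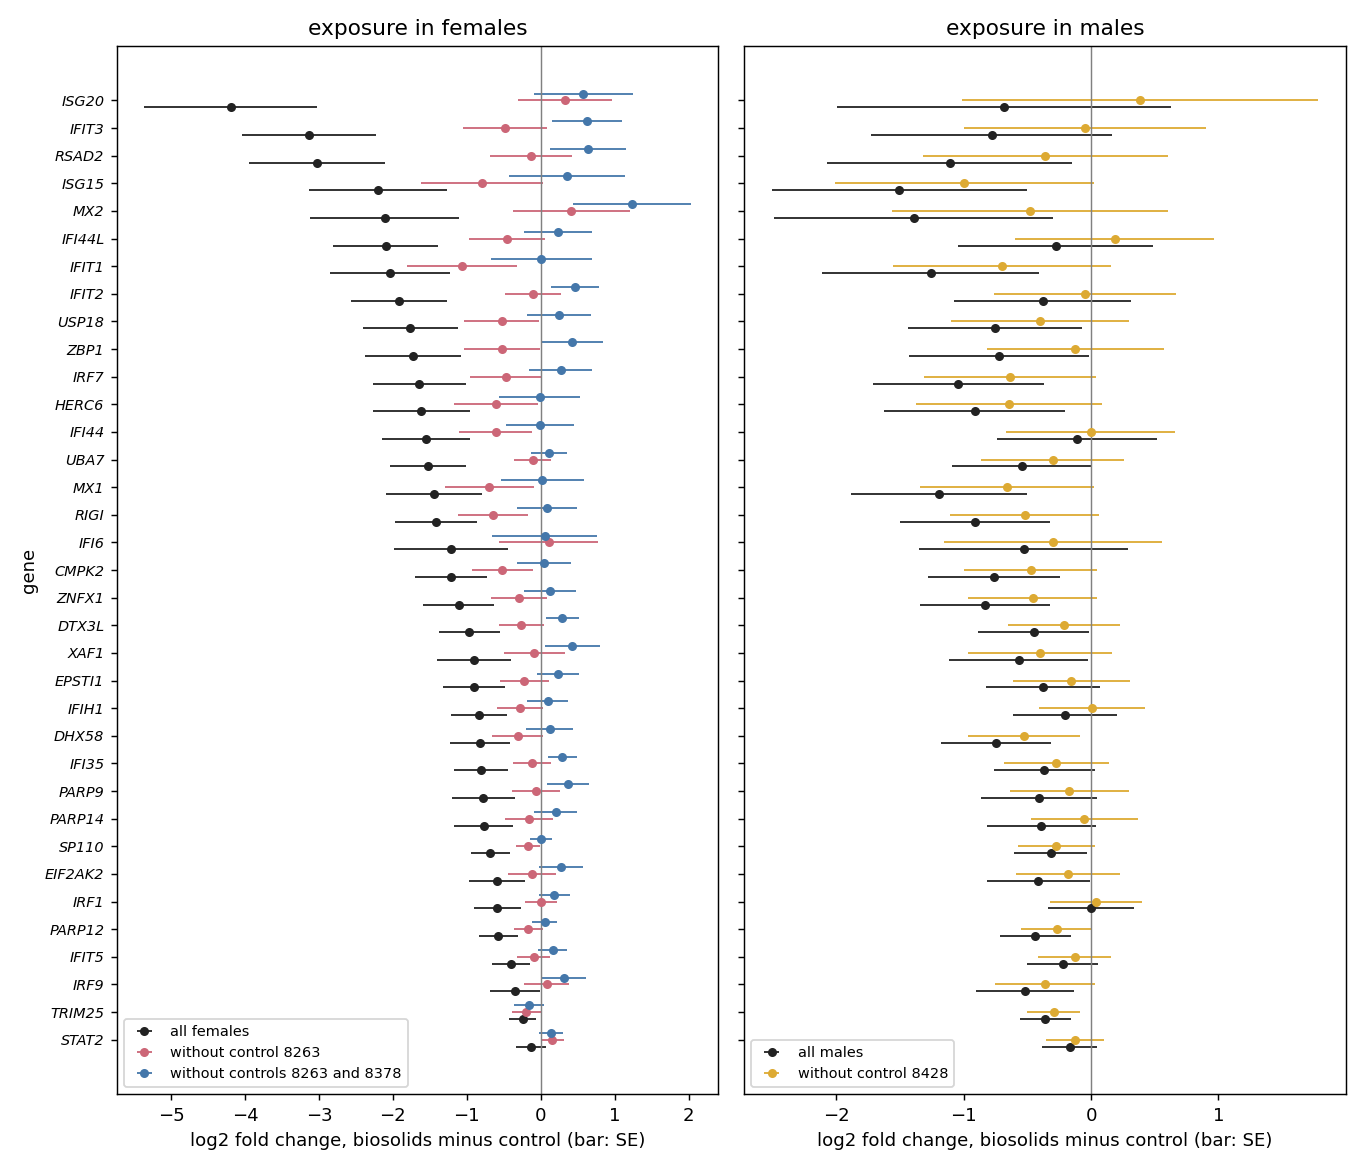
Log2 fold change of each gene for biosolids minus control (horizontal axis, bars are SE) in females and in males, from edgeR fits with all lambs and without the named control lambs. In females the black points lie left of 0 for all 35 genes, the red points without 8263 lie near 0, and the blue points without 8263 and 8378 lie right of 0 for 31. In males the points lie left of 0 for all 35 genes with all lambs and for 31 without control male 8428.

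In males the median log2 fold change of the 35 genes was -0.53, between the female values with lamb 8263 (-1.21) and without it (-0.19). None passed the edgeR test (smallest adjusted p 0.816, with 0% of all genes called), and 0 had an unadjusted p under 0.05, where 2.15% of all genes were lower and 3.29% higher at that level. DESeq2 gave 1 and limma voom 2 at an unadjusted p under 0.05, all lower. All 35 fitted differences were negative, against 48.7% of all genes, although IRF1 was at -0.00 (SE 0.34), and the median over all genes was 0.01. Group medians were lower in exposed males for 34 of the 35, with a median log2 ratio of -0.27. Over all genes 50.7% were lower by this measure, with a median log2 ratio of -0.0048.

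TRIM25 had the smallest unadjusted p in males, 0.0847 in the edgeR fit, with a log2 fold change of -0.36 (SE 0.20). Its values were 183 to 396 CPM with a median of 310 CPM in control males and 187 to 313 CPM with a median of 225 CPM in exposed males, so the groups overlapped. MX1 was at -1.19 (SE 0.69), with 45.9 to 464 CPM and a median of 89.0 CPM in controls and 51.1 to 95.1 CPM with a median of 78.6 CPM in exposed males. DHX58 was at -0.75 (SE 0.43), with 22.1 to 76.0 CPM and a median of 28.7 CPM in controls against 17.8 to 30.4 CPM and 24.7 CPM. No member had groups that did not overlap in either sex, where 0 genes in females and 10 of 17840 in males (0.0561%) had none.

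One control male carried part of this margin. Without 8428, 31 of the 35 were lower in exposed males, 4 higher, and the median log2 fold change was -0.28. Lamb 8428 is the highest control male for these genes, so leaving it out shrinks the difference by construction. MX1 was then at -0.66 (SE 0.68) and ISG15 at -0.99 (SE 1.01) in place of -1.51 with all males. An exposed male moved the margin the other way: without 8778, with 87.5% of its counts in ribosomal RNA rows, the median was -0.67. Leaving out control females 8263 and 8378, which enter the males' test only through the shared estimate of spread and the scaling, left the median at -0.53 and brought 10 members to an unadjusted p under 0.05, where 2.29% of all genes were lower. All 11 hepatocyte markers tested were also lower in exposed males, against 48.7% of all genes, with a median of -0.23. At an unadjusted p under 0.05 there were 0, where 2.15% of all genes were lower. Of 10 T and NK cell markers 9 were lower, with a median of -0.21. The other marker lists are not given for males here. The part of any cell type in the difference was not tested.

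Averaged over both sexes, all 35 genes were lower in exposed lambs, against 51.1% of all genes, and their median log2 fold change was -0.87. At an unadjusted p under 0.05, 24 were lower and 0 higher, where 2.20% of all genes were lower. None passed the adjustment in edgeR's test (smallest adjusted p 0.943, 0% of all genes called). Without lamb 8263 the count at an unadjusted p under 0.05 was 7, against 1.86% of all genes, and without 8263 and 8378 it was 0, against 1.78%. RSAD2 had the smallest unadjusted p with all lambs, 0.00426, at -2.07 (SE 0.66).

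The difference between the sexes in the effect of exposure, computed as the male log2 fold change minus the female one, was positive for 32 of the 35 genes and negative for 3, where 46.6% of all genes were negative, with a median of 0.52. None passed the edgeR test after adjustment (smallest adjusted p 0.951, 0% of all genes called) and 0 had an unadjusted p under 0.05, where 1.41% of all genes were lower and 2.23% higher. ISG20 was largest at 3.51 (SE 1.71), then IFIT3 at 2.35 (SE 1.28) and IFI44L at 1.82 (SE 1.03). Without lamb 8263 the median was -0.26 and 31 of the 35 were negative. Without 8263 and 8378 all 35 were negative, with a median of -0.80, and 6 had an unadjusted p under 0.05, where 1.70% of all genes were lower. The direction of this difference thus changed when lamb 8263 was left out. Leaving out the highest control females lowers this difference by construction, so its sign in those fits shows no direction.

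Control males against control females showed the same dependence. With all lambs 34 of the 35 were lower in males, against 54.6% of all genes, with a median of -0.88, and 12 had an unadjusted p under 0.05, all lower, where 11.1% of all genes were lower at that level. None passed edgeR's test after adjustment, where 0.0841% of all genes did. ISG20 was at -4.38 (SE 1.25), IFIT3 at -2.87 (SE 0.95) and IFI44L at -2.42 (SE 0.76), with a smallest adjusted p of 0.198. Without lamb 8263 the median was -0.05 and 0 of the 35 were lower at an unadjusted p under 0.05, where 8.52% of all genes were. Without control male 8428 the count was 22, all lower, where 9.03% of all genes were lower at that level. Each of these lambs is the highest control of its sex for these genes. By construction, leaving out 8263 raises this difference and leaving out 8428 lowers it, so these fits show no direction.

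The genes upstream of the response were taken from lists of ligands and receptors, transducers and sensors, and negative regulators. IFNG, the gene for interferon gamma, did not pass the low-count filter and had 15 counts in lamb 8263, or 0.369 CPM, against 0 to 0.177 CPM in the other 29. The receptors were near their usual level there: IFNAR1 at 68.5 CPM against a median of 49.8 CPM, IFNGR2 at 354 CPM against 370 CPM and IFNLR1 at 4.95 CPM against 5.80 CPM. IFNAR2, the signalling chain of the type I receptor, was at 55.8 CPM against 13.7 to 35.5 CPM. Of 7 receptors and ligands tested in females, 4 were lower and 3 higher in exposed lambs, 0 at an unadjusted p under 0.05, where 54.1% of all genes were lower and 2.15% lower at that level. Without lamb 8263, 5 were lower and 2 higher, again 0 at that level, against 51.8% and 1.46% of all genes lower. IFNAR2 was at -0.25 (SE 0.20) with all females and at -0.0027 (SE 0.16) without lamb 8263, and IFNGR2 at -0.12 (SE 0.12) and -0.13 (SE 0.12).

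Of the 16 transducers and sensors outside the 35, 12 were lower in exposed females, 3 at an unadjusted p under 0.05, against 54.1% and 2.15% of all genes. Without lamb 8263, 7 were lower and 0 at that level, against 51.8% and 1.46% of all genes. JAK1, TYK2 and MAVS were 0.744, 0.908 and 0.913 times the median of the other lambs in lamb 8263. CGAS, the cytosolic DNA sensor, was at 18.8 CPM against 0.822 to 4.58 CPM. TLR7, an endosomal sensor of single-stranded RNA, was at 7.66 CPM against 0.232 to 1.19 CPM, and IRF3, which starts interferon transcription, at 78.0 CPM against 20.0 to 45.0 CPM. In females TLR7 was at -1.27 (SE 0.51) and IRF3 at -0.51 (SE 0.18), and without lamb 8263 they were at 0.06 (SE 0.32) and -0.25 (SE 0.13).

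Among 7 negative regulators, SOCS1, which blocks JAK kinases, was at 15.5 CPM in lamb 8263 against 0.710 to 4.15 CPM, and TRIM21, a ligase that binds antibody in the cytosol, at 71.2 CPM against 11.5 to 44.3 CPM. In exposed females 6 of the 7 were lower and 0 had an unadjusted p under 0.05, against 54.1% and 2.15% of all genes. SOCS1 was at -0.64 (SE 0.36) and TRIM21 at -0.57 (SE 0.28). Without lamb 8263, 5 were lower, 0 at that level, against 51.8% and 1.46% of all genes. SOCS1 was then at 0.14 (SE 0.22) and TRIM21 at -0.15 (SE 0.22). Of 22 further interferon-stimulated genes tested, 19 were lower in exposed females, 5 at an unadjusted p under 0.05, against 54.1% and 2.15% of all genes. Without lamb 8263, 14 were lower and 0 at that level, against 51.8% and 1.46%. BATF2, a transcription factor, was at 54.0 CPM in lamb 8263 against 1.95 to 13.2 CPM, and IFITM3, which blocks viral fusion, at 647 CPM against 21.7 to 173 CPM.

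Targets of interferon gamma and genes of antigen presentation were high in lamb 8263 too. It was the highest lamb for all 18 tested, and their mean log2 CPM was 7.05 there, against 3.62 to 5.04 in the other 29. CXCL11, among the 18, was at 1.77 CPM there against 0 to 0.625 CPM. It passed the low-count filter only with lamb 8263 included, so its place in these counts follows from that lamb. IDO1, which degrades tryptophan, was at 47.7 CPM against 0.115 to 2.84 CPM, and CXCL10, which attracts lymphocytes, at 178 CPM against 2.04 to 16.7 CPM. The immunoproteasome subunit gene PSMB8 was at 431 CPM against 21.6 to 87.6 CPM, and TAP1, the peptide transporter, at 373 CPM against 22.7 to 73.3 CPM. Control male 8428, which ranked 3 of 30 for the 35 genes, ranked 9 for this list, and lamb 8378 ranked 2. In exposed females all 18 were lower, 7 at an unadjusted p under 0.05, against 54.1% and 2.15% of all genes. Without lamb 8263, CXCL11 was not tested, and 10 of the other 17 were lower and 0 at that level, against 51.8% and 1.46%. IDO1 was at -3.15 (SE 0.93) with all females and at -0.21 (SE 0.57) without lamb 8263, and PSMB8 at -1.08 (SE 0.44) and -0.11 (SE 0.28).

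Markers of immune cells moved with these genes in lamb 8263 in part. All 10 T and NK cell markers tested were above the median of the other lambs there and 9 were the highest of 30, with a summed level of 123 CPM against 22.3 to 66.1 CPM. CD8A was at 33.4 CPM against 3.98 to 11.4 CPM, whereas CD4 at 3.47 CPM lay below control female 8322. Of 10 macrophage and Kupffer cell markers tested, 8 were above the median and 5 the highest, with a sum of 2547 CPM against 968 to 1809 CPM. C1QA and CLEC4F were at 590 and 216 CPM, whereas CSF1R and CD14 were at 96.7 and 148 CPM, below their medians, and CD68 was at 0 counts in all 30 lambs.

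The B and plasma cell markers summed to 20.7 CPM in lamb 8263, inside the range of 11.9 to 36.9 CPM of the others, and the neutrophil markers to 7.61 CPM, inside 3.26 to 12.4 CPM. The plasmacytoid dendritic cell markers summed to 70.6 CPM against 32.4 to 53.3 CPM, most of it IRF8 at 45.5 CPM, which other leukocytes also express. Hepatocyte markers summed to 70736 CPM, the next to lowest of 30, of which ALB was 30009 CPM. CPS1, the first enzyme of the urea cycle, was at 1060 CPM against 1820 to 5255 CPM. Of the 11 hepatocyte markers tested, 3 were above the median in lamb 8263, among them TTR at 4365 CPM against a median of 3469 CPM. The part of any of these cell types in the level of the 35 genes was not tested.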

How the data were processed

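Whole-number gene counts, not normalized, were used as deposited in 1 table with a column per lamb; 0 columns were left out. Per the labels' protocols, RNA came from frozen liver and libraries from a TruSeq RNA kit. The tools named in the submitters' processing notes, with no settings, are featureCounts 1.5.0-p3, STAR, Trimmomatic, MultiQC and FastQC. 7 gene rows broken over 25 lines were joined. Coordinates equal those of RefSeq assembly ARS-UI_Ramb_v3.0 in all 28855 genes compared.

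edgeR 4.0.16 in R 4.3.3 kept 17840 genes (filterByExpr), scaled libraries by TMM and fitted the 4 groups together with its robust quasi-likelihood test (26 residual degrees of freedom), which was tested on simulated data. Benjamini-Hochberg adjustment ran over all genes, with a threshold of 0.05. CPM use scaled libraries, and levels a prior count of 2. P-values measure the spread between lambs, and lambs that share a dam would make them too small. Alternatives were RLE scaling, no filter, rRNA rows left out, DESeq2 1.42.0, limma 3.58.1 voom with sample weights and lambs left out.

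The members, lists and tests were chosen with earlier results of these data known. Named genes were the smallest p by role, the highest and lowest levels per length and the smallest p of each list; others were named after their values were seen.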

Additional observations from a re-analysis of the deposited data

Results flagged for a closer look

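A value was marked where a lamb's gap to the nearest lamb of its group exceeded Dixon's 95% limit on log2 CPM. Of 144 sets, made of each gene and the mean level within each group, 11 were marked, and chance marks about 1 in 20. Control female 8263 gave 4 of them: ISG20 at 111 CPM, RSAD2 at 587 CPM, IFI6 at 4675 CPM and UBA7 at 173 CPM, where the nearest control females were at 1.28, 40.1, 549 and 23.2 CPM. Control male 8428 was marked for IFIT3 at 36.6 CPM and PARP12 at 59.3 CPM, and control male 8364 for a low TRIM25 of 183 CPM. Among exposed lambs, biosolids female 8775 was marked for IFIH1 at 47.7 CPM and SP110 at 43.5 CPM, and biosolids male 8778 for ZBP1 at 16.7 CPM. Biosolids male 8770 was marked for MX2 at 0 CPM, where the nearest biosolids male was at 3.11 CPM. No gene met the rule for a difference between the sexes in the effect of exposure, and the causes were not tested.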

How the results depend on the processing

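No paired analysis was possible because the groups share no replicate numbers: every lamb has its own tag. No member was called at an adjusted p under 0.05 in any of the 5 comparisons under any alternative run. RLE scaling, no low-count filter and leaving out ribosomal RNA rows changed no median direction. The fits without 8263 and 8378 were chosen after seeing the data. They take the highest lambs from the control females only, so a change of sign there follows in part from the choice. Leaving out 1 lamb at a time, the count of members at an unadjusted p under 0.05 ran from 0 to 29 in females, 0 to 2 in males, 7 to 30 over both sexes, 0 to 3 for the interaction and 0 to 22 for sex in controls. Their median log2 fold change ran from -1.37 to -0.19 in females, -0.67 to -0.28 in males, -0.26 to 0.79 for the interaction and -1.15 to -0.05 for sex in controls. The lowest counts in females, over both sexes and for sex in controls, and the negative interaction, came without control female 8263. The smallest male difference came without control male 8428 and the largest without biosolids male 8778.

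With limma voom the counts were 0 in females, 2 in males, 1 over both, 1 for the interaction and 1 for sex in controls, with medians of -0.12 in females and -0.29 for the interaction. DESeq2 gave 1 in males and 1 for the interaction, as RLE scaling and leaving out ribosomal RNA rows did for the interaction (1 each). Without 8263 and 8778 the counts were 0, 6, 8, 1 and 0 in that order, with medians of -0.19 in females and -0.44 for the interaction. Without 8263 and 8378 they were 0, 10, 0, 6 and 1, with medians of 0.21 in females, -0.80 for the interaction and 0.40 for sex in controls.

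Without 8263 and 8378, 31 of the 35 members changed sign in females, among them the named genes IRF7 (0.27), IRF1 (0.19), ZBP1 (0.43), RIGI (0.082), UBA7 (0.12), USP18 (0.25), ISG20 (0.57), IFIT3 (0.62), DTX3L (0.29), PARP12 (0.052) and IFI44L (0.23). Without 8263 and 8778, IRF1 was at 0.0049 and ISG20 at 0.33, and DESeq2, which replaced the count of lamb 8263, put ISG20 at 0.35. With 1 lamb left out IRF1 ran from -0.69 to 0.0026 and ISG20 from -4.43 to 0.33. For the interaction ISG20 was -0.28 with voom, -1.25 without 8263 and 8778 and -1.12 without 8263 and 8378, and ran from -0.87 to 4.58 with 1 lamb left out. IFIT3 was -0.39, -0.55 and -1.38 and ran from -0.27 to 3.09, and IFI44L was -0.11, -0.047 and -0.50. For sex in controls ISG20 was 0.11 and 0.36 in the last 2 fits and ran from -5.45 to 0.10, and IFIT3 was 0.88 without 8263 and 8378. For the changes that lambs left out did not make, the cause was not tested. Lamb 8778 had the fewest counts outside ribosomal RNA, so its low genes were measured least precisely.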

Other observations

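These genes were named after their values were seen. The list symbol BST2, tetherin, had no row, but BST-2A and BST-2B did. BST-2A was 172 CPM in control female 8263 against 1.46 to 15.4 CPM in the other 29 lambs, and BST-2B 271 CPM against 6.61 to 69.0 CPM. CD274, the gene for the checkpoint ligand PD-L1, was 40.7 CPM in lamb 8263 against 0.687 to 6.39 CPM, and FCGR1A, the high-affinity IgG receptor of macrophages, 20.8 CPM against 0.131 to 1.96 CPM. CD69, an early activation marker of lymphocytes, was 7.41 CPM against 0.0825 to 1.17 CPM.

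Some liver genes were low in the same lamb. FGF21, a fasting hormone of hepatocytes, was 0.172 CPM in lamb 8263 against 1.06 to 71.8 CPM in the other 29, and HSD17B1, a steroid dehydrogenase, 0.961 CPM against 4.08 to 19.3 CPM. Each of these values comes from 1 library and has no replicate check.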
